A study of Arabidopsis thaliana with 6 samples.

Results

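The Calvin cycle and photorespiration genes described here are 41 Arabidopsis thaliana loci, 22 of the Calvin cycle and 19 of photorespiration. They were chosen by locus from their known roles and found through the locus column of the array-element table. Of the 41, 40 had a probe that matches no other locus, as had 28324 loci in the whole series. The study hybridised total RNA of young leaves, leaf 3 or 4 at 4 days of age, to 1-colour Agilent arrays. Plants were grown on soil for 13 days with 16 h of light and 8 h of dark, and were harvested 5 h after the lights came on. There were 3 genotypes with 2 arrays each: ore15-1D, ore15-2 and the wild type Col. The labels give the mutants by allele name alone, and the design text calls the arrays of a genotype independent biological samples. ORE15 (AT1G31040) encodes a PLATZ transcription factor, and as background ore15-1D is known as an activation-tagged allele and ore15-2 as a loss-of-function allele, each a single line.

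The Calvin cycle fixes carbon dioxide in the chloroplast stroma: Rubisco joins it to ribulose bisphosphate, the product is reduced with NADPH and ATP from the light reactions, and most of the resulting triose phosphate is used to rebuild the acceptor. Rubisco also reacts with oxygen, which gives 2-phosphoglycolate, and photorespiration salvages its carbon by a route through chloroplast, peroxisome and mitochondrion that releases carbon dioxide and ammonia. In leaves the genes of both pathways are among the most abundantly expressed nuclear genes, and their products build up as a leaf turns from cell division to photosynthesis.

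Levels are log2 values of the processed spot intensity over its 75th percentile on the same array, from the brightest probe that matches 1 locus. A level is compared between genotypes and not between genes. Differences are log2 values, a mutant minus Col, with the standard error of the limma fit on all 6 arrays, and a gene was called where its p-value, adjusted by Benjamini-Hochberg over all loci tested, was below 0.05. With 2 arrays a genotype the number of arrays limits the precision, and p-values measure the spread between these arrays.

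The 75th percentile of the signal stood at 1246 and 1336 for ore15-1D arrays, 808 and 747 for ore15-2 arrays, and 925 and 858 for Col arrays, so the genotypes did not overlap in overall brightness. Between 67.8% and 73.0% of the spots were well above background, and 0 were saturated. Replicate arrays correlated at 0.993 in ore15-1D, 0.988 in ore15-2 and 0.986 in Col. Slide 1 held the ore15-1D arrays with Col replicate 1, and slide 2 held the ore15-2 arrays with Col replicate 2, so that no slide held both mutants and only the Col arrays link the slides. ORE15 itself stood at 2.75 and 2.66 in ore15-1D, at -6.37 and -8.44 in ore15-2 and at -4.90 and -4.79 in Col. It was higher in ore15-1D by 7.55 ± 0.67 (adjusted p = 0.00544, limma) and its difference of -2.56 ± 0.67 in ore15-2, where 1 of 2 arrays had it well above background, was not called (adjusted p = 0.125, limma). All 40 antenna and photosystem genes of the list used to check the leaf label were above background.

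Of the 41 genes, 40 were tested, each well above background on all 6 arrays. The exception was PGLP1 (AT5G36700), the phosphatase that opens photorespiration, whose probes also match AT5G36790. These are abundant transcripts: 36 of the 40 lay above the 90th percentile of tested loci by brightness, and 24 among the brightest 2%.

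In young ore15-1D leaves the transcripts of both pathways were lower than in Col. Of the 40 tested genes, 29 fell, 1 rose and 10 were not called. Over all tested loci, 22.1% were called lower and 18.6% higher in this comparison, 40.7% in all. The Calvin cycle accounted for 20 of the 29, out of 22, and photorespiration for 9, out of 18. The median difference was -0.67 over the Calvin cycle genes and -0.52 over the photorespiration genes, against -0.01 over all tested loci and -0.14 over the loci above the 90th percentile of brightness, of which 33.9% were called lower. The direction depended on the scaling: with normexp background correction and the 75th percentile the medians were -0.21 and -0.06 against -0.25 over all loci, that is 0.04 and 0.20 above it, and with no scaling between arrays they were -0.14 and 0.01 against 0.52. No member was called with normexp and the 75th percentile, where 0 of all loci were called (2245 at an unadjusted p below 0.05, 1 of them a member, limma). With quantile normalization the medians were -0.32 and -0.29, and 17 genes (42.5%) were called lower and 1 higher, beside 18.2% and 23% of all loci.

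The arrays themselves show the same order. Relative to the Col mean, the 40 genes had medians of -0.54 and -0.66 for ore15-1D arrays, of 0.16 and 0.45 for ore15-2 arrays, and of -0.07 and 0.07 for Col arrays. For 35 genes both ore15-1D arrays lay below both Col arrays, and for 2 genes, FBA3 and GGT2, both lay above. Among all loci without a missing array, 40.5% had both ore15-1D arrays below Col and 40% had both above.

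**Figure D1:**
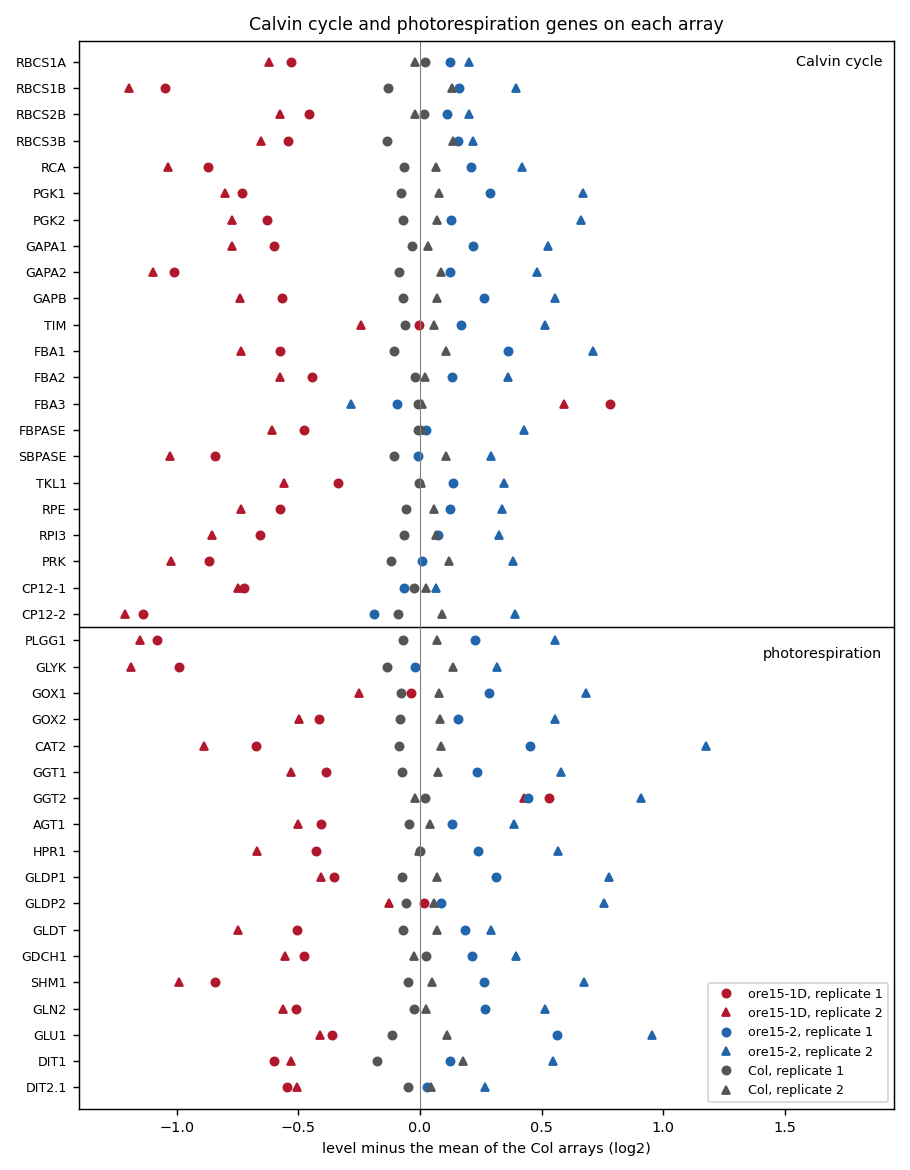
Level of each tested gene on each array minus the mean of the 2 Col arrays (log2, x axis), with Calvin cycle genes above the line and photorespiration genes below it. The red ore15-1D points lie left of the grey Col points for 35 of 40 genes, the blue ore15-2 points lie right of them for 32, and FBA3 runs the other way.

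Rubisco comes first in the cycle. RBCS1A, the small subunit gene on chromosome 1 (probe at TAIR10 chr1:25048907-25048966), had levels of 8.09 and 8.00 in ore15-1D, 8.74 and 8.82 in ore15-2, and 8.64 and 8.60 in Col. RBCS1B, from the cluster of small subunit genes on chromosome 5, had 6.65 and 6.50 in ore15-1D, 7.86 and 8.09 in ore15-2, and 7.57 and 7.83 in Col. Neither gene's ore15-1D arrays came near the other genotypes. RBCS1A fell by 0.58 ± 0.08 in ore15-1D (adjusted p = 0.0104, limma), and RBCS1B fell by 1.12 ± 0.14 (adjusted p = 0.0085, limma), a signal 2.17-fold lower. RBCS2B stood at 8.13 and 8.01 in ore15-1D, 8.69 and 8.78 in ore15-2, and 8.60 and 8.56 in Col. RBCS3B stood at 7.51 and 7.40 in ore15-1D, 8.21 and 8.27 in ore15-2, and 7.92 and 8.19 in Col. Both fell in ore15-1D, RBCS2B by 0.52 ± 0.09 and RBCS3B by 0.60 ± 0.12 (adjusted p = 0.014 and 0.0198, limma). These genes are among the brightest on the array, and with quantile normalization RBCS1A, RBCS2B and RBCS3B were not called, with differences of 0.040 and 0.060 for the last 2. RBCS1A was also not called after normexp with either scaling, without scaling, with either ore15-1D array left out, or in the authors' deposited table, where it differed by 0.018 (adjusted p = 0.0070 to 0.873 over all settings, limma). The 3 neighbouring genes on chromosome 5 are close copies, and the match of a probe to 1 of them does not show that it takes up no transcript of the others.

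Rubisco activase, RCA (AT2G39730), uses ATP to free Rubisco of bound inhibitory sugar phosphates. RCA stood at 7.09 and 6.92 in ore15-1D, 8.17 and 8.38 in ore15-2, and 7.89 and 8.02 in Col, without overlap among the 3 genotypes. RCA fell by 0.95 ± 0.12 in ore15-1D (adjusted p = 0.00832, limma), a signal 1.94-fold lower. RBCL, the plastid gene for the large subunit and not among the 41, was lower by 0.87 ± 0.10 (adjusted p = 0.00705, limma), with 7.64 and 7.47 in ore15-1D, 8.51 and 8.62 in ore15-2, and 8.40 and 8.46 in Col.

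**Figure D2:**
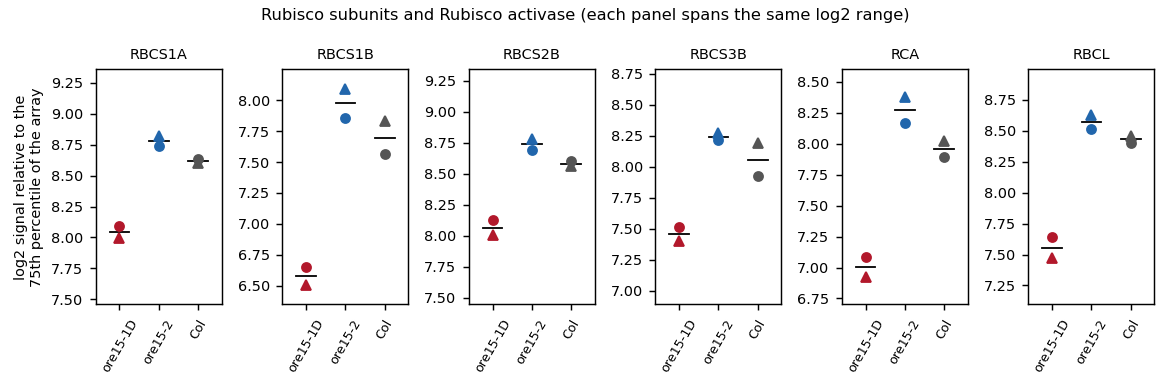
Log2 level (processed intensity over its 75th percentile on that array) for the small subunit genes, Rubisco activase and the plastid-encoded large subunit gene, with 1 point per array (circle for replicate 1, triangle for replicate 2) and a line at each genotype's mean. In all 6 panels the ore15-1D arrays lie below the ore15-2 and Col arrays, and panels share the length but not the position of the y axis.

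The genes for Rubisco and its activase have several probes, which were read in 1 fit over all probes above background (31245 probes, 20.6% of them lower in ore15-1D). The 10 probes of RBCS1A differed by -0.64 to -0.48 in ore15-1D, and all 10 passed. The 9 probes of RCA differed by -1.44 to -0.88, and all 9 passed. The brightest RCA probe, from which the value above was taken, gave a smaller difference than 7 of the other 8. Over the whole set, 109 of 110 probes that match 1 member were above background, of which 100 were negative, 67 were called lower and 2 were called higher in ore15-1D. Both probes shared by PGLP1 and AT5G36790 were lower in ore15-1D, by 0.68 ± 0.17 and 0.61 ± 0.15, and which of these loci they measured is not known.

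**Figure D3:**
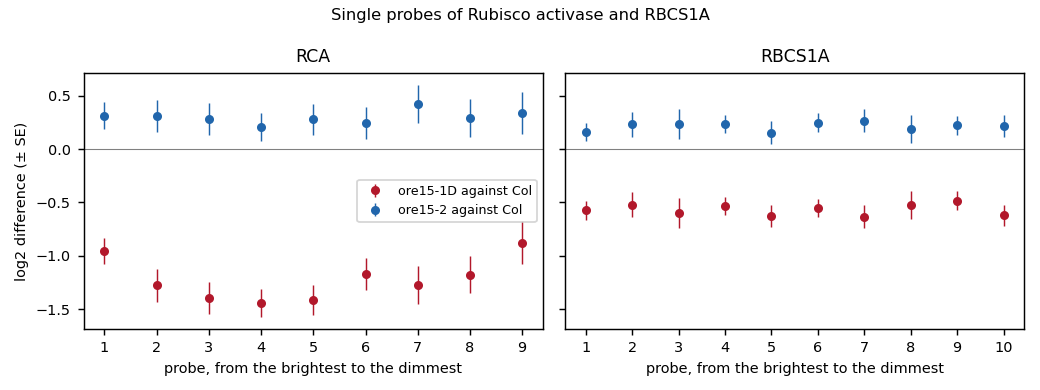
Log2 difference from Col of each probe of RCA (left) and RBCS1A (right), with bars of 1 SE from the fit over all probes, ordered from the brightest to the dimmest probe. In ore15-1D (red) all 9 RCA probes and all 10 RBCS1A probes lie below 0, and in ore15-2 (blue) they lie above it.

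Beside 22.1% of all loci, all 5 genes of the reduction step fell in ore15-1D. They encode phosphoglycerate kinase (PGK1, PGK2), which phosphorylates the first product of fixation, and the subunits of the NADPH-dependent glyceraldehyde phosphate dehydrogenase (GAPA1, GAPA2, GAPB). PGK1 had levels of 5.52 and 5.45 in ore15-1D, 6.54 and 6.93 in ore15-2, and 6.18 and 6.33 in Col. GAPA2 had 6.18 and 6.10 in ore15-1D, 7.32 and 7.68 in ore15-2, and 7.11 and 7.28 in Col. Both kept the genotypes apart. PGK1 fell by 0.77 ± 0.15 (adjusted p = 0.02, limma). GAPA2 fell by 1.05 ± 0.15 (adjusted p = 0.0103, limma), the largest fall of this step and a signal 2.08-fold lower. GAPB had 6.62 and 6.45 in ore15-1D, 7.45 and 7.74 in ore15-2, and 7.12 and 7.26 in Col, and fell by 0.65 ± 0.14 (adjusted p = 0.0228, limma). GAPA1 and PGK2 (AT1G56190) fell by 0.69 and 0.70.

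The regeneration of ribulose bisphosphate is the longest arm of the cycle. Of its 10 genes 8 fell and 1 rose, beside 22.1% and 18.6% of all loci. The largest falls were those of PRK, phosphoribulokinase, which makes the acceptor, and of SBPASE, sedoheptulose bisphosphatase, which commits carbon to regeneration. PRK stood at 3.93 and 3.78 in ore15-1D, 4.81 and 5.18 in ore15-2, and 4.68 and 4.92 in Col. SBPASE stood at 5.35 and 5.17 in ore15-1D, 6.19 and 6.49 in ore15-2, and 6.09 and 6.30 in Col. For both, the ore15-2 and Col arrays overlapped while the ore15-1D arrays lay below all of them. PRK fell by 0.95 ± 0.17 and SBPASE by 0.93 ± 0.15 (adjusted p = 0.0155 and 0.0128, limma). RPI3, a plastid ribose phosphate isomerase, had 5.37 and 5.17 in ore15-1D, 6.10 and 6.35 in ore15-2, and 5.96 and 6.09 in Col, and fell by 0.75 ± 0.13 (adjusted p = 0.0151, limma). RPE, FBA1, FBPASE, FBA2 and TKL1 fell by 0.65, 0.65, 0.54, 0.51 and 0.45. FBPASE and TKL1 passed narrowly (adjusted p = 0.0456 and 0.0411, limma). FBA2 turned to 0.097 with quantile normalization and TKL1 to 0.086 without scaling. TIM, plastid triose phosphate isomerase, differed by -0.12 ± 0.16 with overlapping arrays and was not called (adjusted p = 0.544, limma).

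FBA3 (AT2G01140), a plastid aldolase like FBA1 and FBA2, was the exception. FBA3 had levels of 2.975 and 2.784 in ore15-1D, 2.098 and 1.908 in ore15-2, and 2.184 and 2.199 in Col. FBA3 rose by 0.69 ± 0.11 in ore15-1D (adjusted p = 0.0131, limma), a signal 1.61-fold higher, while FBA1 and FBA2 fell.

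CP12 proteins bind glyceraldehyde phosphate dehydrogenase and phosphoribulokinase into an inactive complex in the dark. CP12-1 had levels of 6.84 and 6.82 in ore15-1D, 7.50 and 7.63 in ore15-2, and 7.54 and 7.59 in Col. CP12-2 had 1.63 and 1.56 in ore15-1D, 2.58 and 3.16 in ore15-2, and 2.68 and 2.86 in Col. For both genes the ore15-1D arrays lay below all others, and the Col arrays lay between the 2 ore15-2 arrays. CP12-1 fell by 0.74 ± 0.09 and CP12-2 by 1.18 ± 0.21 (adjusted p = 0.00731 and 0.0157, limma). The CP12-2 signal was 2.26-fold lower, the largest fall among the 40 genes.

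In photorespiration the largest falls were at the chloroplast envelope and at the return of glycerate to the Calvin cycle. PLGG1 exchanges glycolate and glycerate across the envelope, and it had levels of 3.81 and 3.74 in ore15-1D, 5.12 and 5.45 in ore15-2, and 4.82 and 4.96 in Col. GLYK, glycerate kinase, had 3.41 and 3.21 in ore15-1D, 4.38 and 4.71 in ore15-2, and 4.26 and 4.53 in Col. The ore15-1D arrays of both genes lay far below the others. PLGG1 fell by 1.12 ± 0.14 and GLYK by 1.09 ± 0.17 (adjusted p = 0.00804 and 0.0119, limma).

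Of the 7 genes of the peroxisomal steps 2 were called lower, a share near the 22.1% of all loci. AGT1, serine:glyoxylate aminotransferase, fell by 0.45 ± 0.12, and HPR1, hydroxypyruvate reductase, fell by 0.55 ± 0.15 (adjusted p = 0.0359 and 0.0419, limma). Without scaling AGT1 turned to 0.081. HPR1 stood at 4.205 and 3.964 in ore15-1D, 4.87 and 5.20 in ore15-2, and 4.63 on both Col arrays, with no overlap. CAT2, the catalase that removes the hydrogen peroxide made by glycolate oxidase, stood at 3.55 and 3.33 in ore15-1D, 4.67 and 5.40 in ore15-2, and 4.13 and 4.31 in Col. CAT2 kept the 3 genotypes apart, yet its difference of -0.78 ± 0.26 in ore15-1D was not called (adjusted p = 0.0679, limma). GOX1, a glycolate oxidase, stood at 5.46 and 5.25 in ore15-1D, 5.78 and 6.18 in ore15-2, and 5.42 and 5.58 in Col. Its ore15-1D arrays overlapped Col, with a difference of -0.14 ± 0.17 (adjusted p = 0.516, limma), and its 4 probes differed by -0.14 to 0.04. The neighbouring glycolate oxidase GOX2 differed by -0.46 and was not called.

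The glutamate:glyoxylate aminotransferases GGT1 and GGT2, which turn glyoxylate into glycine, differed in sign. GGT1 stood at 5.57 and 5.43 in ore15-1D, 6.19 and 6.54 in ore15-2, and 5.88 and 6.03 in Col, a difference of -0.46 ± 0.15 in ore15-1D. GGT2 stood at 0.74 and 0.64 in ore15-1D, 0.66 and 1.12 in ore15-2, and 0.23 and 0.19 in Col, a difference of 0.48 ± 0.17 in ore15-1D. Both were not called (adjusted p = 0.0631 and 0.0777, limma), and the arrays of each did not overlap Col. All 4 probes of GGT2 were positive in ore15-1D, at 0.48 to 0.74, and 1 of them passed.

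In mitochondria, where glycine is turned into serine, 3 of 5 genes fell, beside 22.1% of all loci. SHM1, serine hydroxymethyltransferase, had levels of 5.48 and 5.33 in ore15-1D, 6.58 and 6.99 in ore15-2, and 6.27 and 6.37 in Col. SHM1 fell by 0.91 ± 0.16 (adjusted p = 0.0152, limma). GLDT and GDCH1, the T and H proteins of glycine decarboxylase, fell by 0.63 and 0.52. The 2 genes for its P protein, the subunit that decarboxylates glycine, were not called. GLDP1 stood at 2.90 and 2.85 in ore15-1D, 3.57 and 4.03 in ore15-2, and 3.18 and 3.33 in Col, a difference of -0.38 ± 0.17 in ore15-1D (adjusted p = 0.137, limma). GLDP2 stood at 3.22 and 3.08 in ore15-1D, 3.29 and 3.96 in ore15-2, and 3.15 and 3.26 in Col, a difference of -0.06 ± 0.24 with overlapping arrays. The 3 probes of GLDP2 differed by -0.06 to 0.07.

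Ammonia released in mitochondria is refixed in the chloroplast, and 2 of these 4 genes fell, beside the same 22.1% of all loci. GLN2, plastid glutamine synthetase, fell by 0.54 ± 0.11, and DIT2.1, a dicarboxylate transporter, fell by 0.52 ± 0.11 (adjusted p = 0.0207 and 0.0222, limma). GLU1, ferredoxin-dependent glutamate synthase, stood at 3.38 and 3.33 in ore15-1D, 4.31 and 4.70 in ore15-2, and 3.63 and 3.86 in Col. Its difference of -0.39 ± 0.16 in ore15-1D was not called (adjusted p = 0.115, limma), nor was that of the transporter DIT1, at -0.57 ± 0.19 (adjusted p = 0.0729, limma).

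The Calvin cycle median lay below the photorespiration median in both mutants, by 0.15 in ore15-1D and by 0.16 in ore15-2. On single arrays, set against the Col mean, this gap was -0.14 and -0.21 in ore15-1D and -0.11 and -0.18 in ore15-2. The Col values, 0.01 and -0.01, mirror each other by construction. It carries no test, and both mutants are set against the same Col arrays. In ore15-1D quantile normalization gave a gap of -0.025, or of 0.024 when normexp came before it, so that the order of the pathways turned.

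With slide as a fixed block, which sets ore15-1D against Col within slides, 7 genes remained called lower: RBCS1A, RBCS1B, RCA, GAPA2, CP12-1, PLGG1 and GLYK. They are 17.5% of the members, beside 11.3% of all loci called lower and 7.81% called higher in that fit. With a single Col array on each slide this block leaves the contrast with Col replicate 1, so leaving out Col replicate 2, which gave 7 genes as well, is the same comparison and not a second one. Against the Col array of the same slide alone, the median over the 40 genes was -0.55 in ore15-1D, against -0.59 with both Col arrays. Leaving out ore15-1D replicate 1 or replicate 2 leaves 1 array of that genotype, and the genes then lost their calls while some other loci kept theirs. The median over the 40 genes was -0.66 without replicate 1 and -0.54 without replicate 2. The Calvin cycle median was -0.59 to -0.75 over the fits that leave out 1 array each. Without Col replicate 1, 17 genes were called lower, 42.5% of the members beside 19.6% of all loci.

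In ore15-2 leaves the same genes sat slightly above Col, without any call. The median difference was 0.24 over the Calvin cycle genes and 0.40 over the photorespiration genes, against 0.01 over all tested loci. Of the 40 genes 38 had a positive difference and 0 were called (16 at an unadjusted p below 0.05, limma), where 2.15% of all loci were called higher and 1.57% lower, 3.73% in all. Both ore15-2 arrays lay above both Col arrays for 32 genes, and below them for FBA3 alone. Among all loci, 26.4% had both ore15-2 arrays above Col and 26% had both below. With no scaling between arrays the medians were 0.04 and 0.20, against -0.19 over all loci, and with normexp and the 75th percentile 0.74 and 0.88, against -0.22.

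The largest differences in ore15-2 were in photorespiration. CAT2 differed by 0.81 ± 0.26, GLU1 by 0.76 ± 0.16 and GGT2 by 0.68 ± 0.17 (adjusted p = 0.170, 0.0859 and 0.116, limma), from the array values given above, and none overlapped Col. GLDP1, GOX1 and SHM1 differed by 0.55, 0.48 and 0.47. GLU1 had the lowest adjusted p-value of the 40 genes. The largest difference in the Calvin cycle was that of FBA1, with 6.06 and 5.90 in ore15-1D, 6.99 and 7.34 in ore15-2, and 6.52 and 6.74 in Col, a difference of 0.54 ± 0.16 in ore15-2. CP12-1, at -0.00 ± 0.09, and FBA3, at -0.19 ± 0.11, were the negative ones.

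The size of these differences moved with 1 array. Replicate 2 of ore15-2 lay above replicate 1 for 39 of 40 genes, by a median of 0.33, while 48.8% of all loci were higher on replicate 2. The same held to a lesser degree in Col, where replicate 2 was higher for 35 genes with a median of 0.13, and in ore15-1D replicate 1 was higher for 38 genes, by a median of 0.14. These genes thus varied together between arrays of a genotype. The Col arrays lie on different slides, so replicate and slide cannot be told apart there. Without ore15-2 replicate 1 the medians were 0.39 over the Calvin cycle and 0.56 over photorespiration, and without ore15-2 replicate 2 they were 0.13 and 0.23. GLU1 alone was called higher with normexp and quantile normalization and in the authors' deposited table. There 3.34% and 2.51% of all loci were called higher.

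Set directly against each other, the mutants differed in most of these genes. In ore15-1D 36 genes were lower than in ore15-2 and 1, FBA3, was higher by 0.88 ± 0.11. Over all loci, 29.5% were called lower and 26.2% higher, 55.7% in all. The medians were -1.01 over the Calvin cycle and -0.88 over photorespiration. TIM, GGT2 and GLDP2 were not called, with differences of -0.47, -0.20 and -0.48. For 39 genes the arrays of the mutants did not overlap, where 43.9% of all loci had both ore15-1D arrays below both ore15-2 arrays and 41.4% had both above. The mutants lie on different slides. With slide as a fixed block 0 genes and 0 of all loci were called (30 and 7508 at an unadjusted p below 0.05, limma). The Calvin cycle median was -0.84 in that fit.

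**Figure D4:**
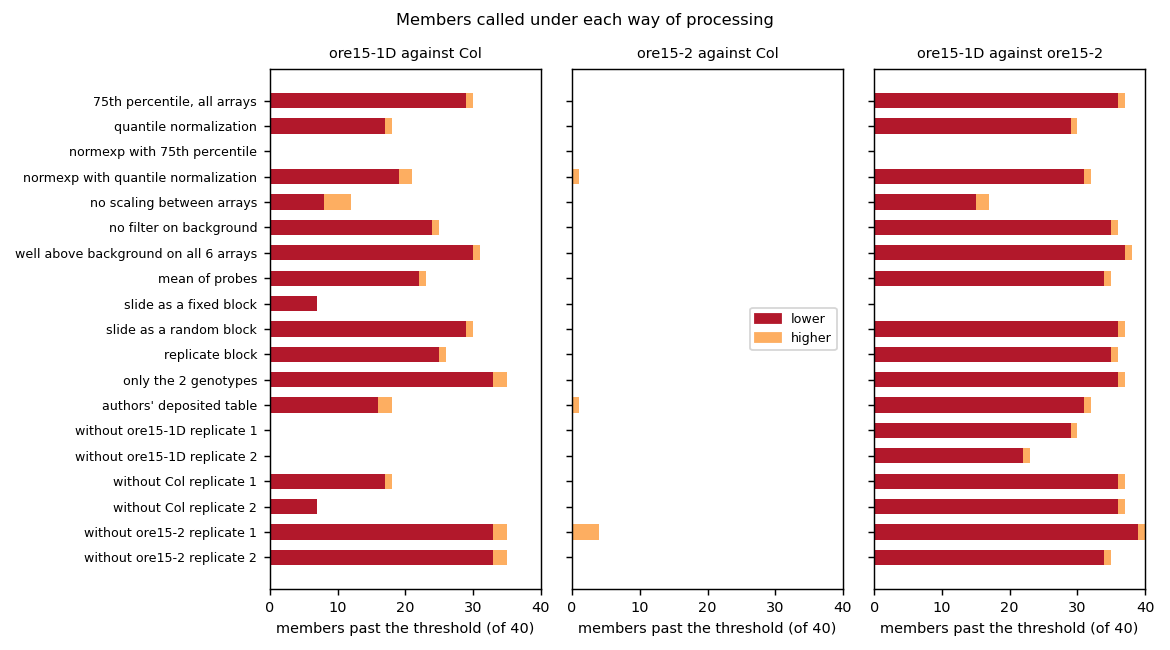
Number of the 40 tested genes called lower (red) and higher (orange) in each comparison under each way of processing, 1 line of bars per way. In ore15-1D against Col the count of lower genes runs from 0 (normexp with the 75th percentile, or without either ore15-1D array) to 33, and in ore15-2 against Col at most 4 genes were called.

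Other genes listed beside these pathways, among them further isoforms of the same enzymes, were called in both directions in ore15-1D. The 41 leave them out, and whether each isoform works in the pathway in these leaves was not tested. Of 7 such genes listed for the Calvin cycle, TKL2, a second plastid transketolase, was higher by 1.18 ± 0.15. It stood at -1.242 and -1.199 in ore15-1D against -2.589 and -2.211 in Col. RBCL, RPI4 and CP12-3 were lower, by 0.87, 0.65 and 0.32. Of 17 such genes tested for photorespiration, 5 were higher and 5 lower, beside 18.6% and 22.1% of all loci. The higher ones were GOX3 (1.81 ± 0.24), GLU2 (1.04 ± 0.09), GDCH2 (0.91 ± 0.16), BASS6 (0.61 ± 0.11) and SHM2 (0.42 ± 0.08). HPR3, CAT1, MTLPD1, GDCH3 and PMDH1 had differences of -1.201, -0.75, -0.61, -0.51 and -0.40. In ore15-2 no gene of these lists was called, with 7 and 17 tested.

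Of 12 Rubisco assembly and repair factors tested 5 were lower and 0 higher in ore15-1D, where 22.1% of all loci were lower and 18.6% higher. RBCX1, a Rubisco assembly chaperone, was lower by 1.57 ± 0.17, and CBBY and BSD2 were lower as well, with differences of -0.84 and -0.78. RBCX1 stood at 0.79 and 0.53 in ore15-1D, 0.53 and 0.12 in ore15-2, and 2.19 and 2.27 in Col. It was the only one of the 12 called in ore15-2, lower by 1.91 ± 0.17 (adjusted p = 0.0204, limma). RBCX1 thus lay below Col in both mutants, while the small subunit genes were lower in ore15-1D and not called in ore15-2. Of 12 cytosolic counterparts, which run glycolysis and sucrose synthesis, 2 were higher (FBA8 by 0.39 and PGK3 by 0.26) and 3 lower in ore15-1D (CYFBP, FBA5 and FBA6, with differences of -0.93, -0.90 and -0.80). All 40 antenna and photosystem genes were lower in ore15-1D, with a median of -0.73, and 0 were called in ore15-2, with a median of 0.10.

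Where a gene's enzyme has further isoforms, the other isoforms mostly stood higher relative to it in ore15-1D. On each array the gene's level was subtracted from that of the other isoform, for 27 pairs within the lists above that were drawn up after their values were seen and so carry no test. A difference taken within an array does not depend on the 75th percentile. In 20 of 27 pairs the other isoform was higher relative to the gene in ore15-1D than in Col, with a median of 0.42 over the 27. In ore15-2 the same was true of 7 pairs, with a median of -0.16. The 40 genes themselves had medians of -0.59 in ore15-1D and 0.31 in ore15-2, against -0.01 and 0.01 over all tested loci. A locus that moved like all loci would thus mostly stand higher against them in ore15-1D and lower in ore15-2. Whether isoforms differ in this from other loci was not tested. Quantile normalization gave 17 of 27 pairs and a median of 0.24 in ore15-1D, and normexp with the 75th percentile gave 16 pairs and a median of 0.06.

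Against Col, the within-array difference in ore15-1D was widest for GOX3 against GOX1, at 1.96. The ore15-1D arrays of that pair were far apart, with a standard deviation of 0.54, against 0.023 for GDCH2 against GDCH1. The difference was 1.63 for TKL2 against TKL1, 1.43 for GDCH2 against GDCH1 and 1.42 for GLU2 against GLU1. SHM2 stood higher against SHM1 by 1.33 and FBA3 against FBA2 by 1.198. In each of these pairs the named isoform rose, while the gene it is set against fell (TKL1, GDCH1, SHM1, FBA2) or was not called (GOX1, GLU1). All 6 within-array differences stayed positive with quantile normalization, the smallest at 0.70, whereas with normexp and the 75th percentile the smallest turned to -1.17. The difference ran the other way for RBCS1B against RBCS1A, at -0.54, for CP12-2 against CP12-1, at -0.44, for GAPA2 against GAPA1, at -0.37, for GOX2 against GOX1, at -0.31, and for HPR3 against HPR1, at -0.65. In ore15-2 the catalases stood out, with differences of -1.66 for CAT3 against CAT2 and of -1.28 for CAT1 against CAT2.

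**Figure D5:**
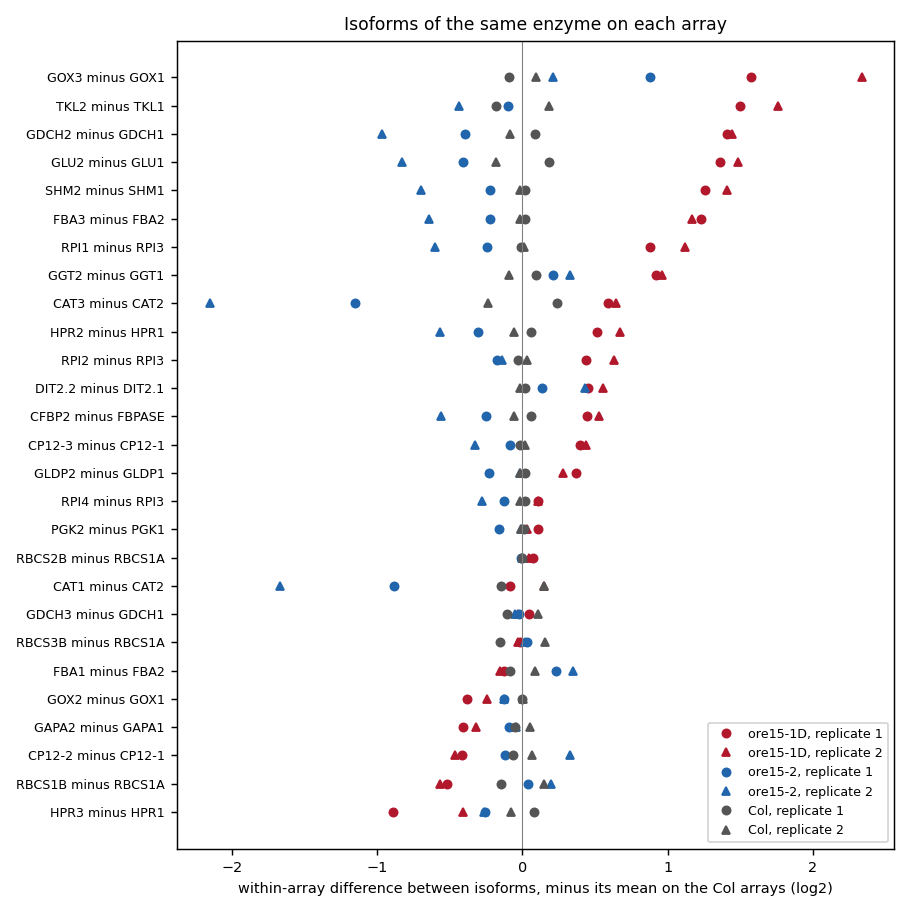
Within-array log2 difference between an isoform and a gene of the 41 for the same enzyme, minus its mean on the Col arrays (x axis), with 1 point per array and pairs ordered by their mean in ore15-1D. The ore15-1D points (red) of GOX3, TKL2, GDCH2, GLU2, SHM2 and FBA3 lie far right of the grey Col points, and those of HPR3, RBCS1B and CP12-2 lie left of them.

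Among markers of other cell types and states, those of dividing cells and of vasculature differed most between ore15-1D and Col. Over all tested loci, 18.6% were called higher and 22.1% lower in ore15-1D, and 2.15% and 1.57% in ore15-2. Of 12 dividing-cell markers tested, 9 were higher in ore15-1D, with a median of 0.81, and their summed level was 48.6 to 49.3 in ore15-1D, 15.4 to 22.7 in ore15-2 and 25.7 to 27.8 in Col, in units of the 75th percentile. In ore15-2, 0 of the 12 were called, with a median of -0.45. Of 8 vasculature markers, 6 were lower in ore15-1D, with summed levels of 9.35 to 9.49 in ore15-1D, 17.3 to 22.8 in ore15-2 and 17.8 to 21.3 in Col. Of 6 epidermis markers, 3 were lower in ore15-1D, while their summed level was 86.1 and 85.7 in ore15-1D and 84.1 and 84.0 in Col, and LTPG1 was higher in ore15-2. Of 10 shoot meristem and boundary markers 3 were tested, while STM, KNAT1, KNAT2, WUS, CLV3, CUC1 and CUC2 were not well above background, and of the 3 CLV1 was lower in ore15-1D while KNAT6 and CUC3, at 0.33 and 0.16, were not called. Of 7 root markers 5 were tested and 3 were lower in ore15-1D, with EXPA7 and EXPA18 not well above background. The part of these markers in the differences of the Calvin cycle and photorespiration genes was not tested, and in whole leaves fewer cells of a type and less RNA per cell cannot be told apart.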

How the data were processed

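The scanner files deposited by the authors hold linear 1-colour spot intensity; the submitters' processing notes name Agilent Feature Extraction 11.5. Its processed signal, with background subtracted per the file headers, was used. Tables of log2 values that the authors deposited, with a scaling not given in the sources used here, served as an alternative. The deposited array-element table pairs probes with TAIR10 loci. Control spots and outlier-marked spots were dropped, and a probe's spots averaged. Of 43603 probes, 900 matched several loci and were kept out of the test by locus. Each locus was read from its brightest probe, and 20289 loci, well above background on each of the 2 arrays of some genotype, were tested. Levels were log2 of the processed signal minus the 75th percentile of the array. Genotypes were compared with limma 3.58.1 under R 4.3.3, two-sided, by lmFit and eBayes over the 6 arrays together, with 3 residual and 1.80 prior degrees of freedom. The script was tested on simulated data.

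The 41 genes and all lists were chosen with earlier results of these data known, so that no list was tested as a set. Values per array are given for the 12 genes with the largest difference in each mutant, and for the small subunit, RCA, glycine decarboxylase P protein, CP12 and CAT2 genes. FBA3 was added after its values were seen. Of each comparison list up to 4 called genes were due, and further ones were named after their values were seen. The promoter search that had been planned was not run, since no promoter sequence was at hand. Other ways of processing were quantile normalization, background correction by normexp on the median signal (offset 50), no scaling, 2 other background filters, the mean of probes, single probes, blocks for slide or replicate number, fits on 2 genotypes, the authors' table, and leaving out each array.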

Additional observations from a re-analysis of the deposited data

How the results depend on the processing

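In the following, values are for ore15-1D against Col unless another comparison is named, and 19 other ways of processing were tried. Quantile normalization called 17 genes lower, with medians of -0.32 (Calvin cycle) and -0.29 (photorespiration), a gap of -0.025, and a gap of -0.21 in ore15-2. RBCS2B, RBCS3B and FBA2 turned to 0.040, 0.060 and 0.097, and to 0.067, 0.031 and 0.105 against ore15-2. Normexp with the 75th percentile called 0 loci in all 3 comparisons, with medians of -0.21 and -0.059, and of 0.74 and 0.88 in ore15-2; TKL1, AGT1 and DIT2.1 turned to 0.028, 0.022 and 0.0038. Normexp with quantile normalization called 19 lower and 2 higher, beside 17.6% and 23.4% of all loci. Its medians were -0.31 and -0.33, with a gap of 0.024. In ore15-2 it called 1 gene and 1202 loci, with a gap of -0.26. In this setting RBCS3B turned to 0.13 and FBA2 to 0.062 in ore15-1D against Col, and RBCS3B to 0.076 against ore15-2. No scaling, added after the data were seen, called 8 lower and 4 higher, beside 8.94% and 55.5% of all loci (13065 loci in all). Its medians were -0.14 and 0.014, and 0.038 and 0.20 in ore15-2. Against ore15-2 it called 15 lower and 2 higher, beside 10.4% and 64.5% of all loci. It turned RBCS2B, TIM, FBA2, TKL1, GOX1, AGT1, GDCH1 and DIT2.1 to 0.018, 0.41, 0.024, 0.086, 0.39, 0.081, 0.019 and 0.0096. Against ore15-2 it turned RBCS2B, TKL1, GOX1, GGT2, AGT1 and DIT2.1 to 0.061, 0.043, 0.105, 0.54, 0.018 and 0.057. The authors' deposited table gave 16 lower and 2 higher, beside 16.3% and 22.5% of all loci. Its medians were -0.43 and -0.32, and it called 1 gene in ore15-2. It turned RBCS1A to 0.018 and RBCS3B to 0.064, and to 0.017 and 0.045 against ore15-2.

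The mean of probes gave a gap of -0.20. With no filter 0 loci were called in ore15-2, and with only the 2 genotypes 0, with 2 genes higher in ore15-1D beside 20.1% of all loci. Slide as a fixed block called 7 lower and 0 higher and 3877 loci, 1 locus in ore15-2, and 0 genes and 0 loci between the mutants. Leaving out each array in turn, with a lone array assumed to vary like the other genotypes, gave 0 to 33 genes lower, 0 to 2 higher and 846 to 8656 loci, medians of -0.75 to -0.59 and -0.54 to -0.44, and a gap of -0.21 to -0.14. In ore15-2 it gave 0 to 4 genes higher, 0 to 1347 loci, medians of 0.13 to 0.39 and 0.23 to 0.56, and a gap of -0.18 to -0.11. Between the mutants it gave 22 to 39 genes lower and 4797 to 11421 loci. The cause of these changes was not tested, beyond fewer arrays.

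The replicate number as a block gave 25 genes lower and 1 higher in ore15-1D, beside 18.6% and 13.6% of all loci. In ore15-2 it gave 3 loci called. Deviations of same-numbered arrays correlated at -0.09 (ore15-1D and Col), 0.13 (ore15-2 and Col) and -0.01 (ore15-1D and ore15-2). These values cannot show whether the numbers pair the samples. Each genotype has a single difference between replicates, and the Col arrays lie on different slides.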
